A study of Mus musculus with 4 samples.

Results

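Complement is the cascade of plasma and cell surface proteins that tags particles and debris for uptake and recruits phagocytes. The classical pathway starts with C1, in which the recognition protein C1q, built from A, B and C chains, carries the proteases C1r and C1s. These cut C4 and C2, and every route meets at C3, whose fragments coat targets and signal through receptors such as C3ar1. Factor B (Cfb) and properdin (Cfp) amplify the reaction through the alternative pathway. The liver makes most plasma complement. C1q is a macrophage product in most tissues and properdin comes largely from neutrophils and other myeloid cells, whereas fibroblasts and other mesenchymal cells make C1r, C1s, C4, factor B and C3. Myeloid cells can make C3 as well.

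Transcripts of 9 complement genes (C1qa, C1qb, C1qc, C1ra, C3, C4b, Cfb, C3ar1 and Cfp) were examined in cultured mouse myoblasts with and without Tet2, an enzyme that oxidises methylated cytosine in DNA. The genes were taken by symbol, and all 9 were found among the 24445 genes of the expression table. RNA had been sequenced from 4 libraries of C57BL/6 cells, 2 wild type (WT) and 2 Tet2 knockout (Tet2 KO). The knockout was constitutive, by removal of exon 3, so every cell type of the animal carried it. Male mice of young adult age were the default of the study's methods. Satellite cells, the stem cells of muscle, had been sorted from hindlimb muscle by absence of CD45, CD11b, CD31 and Sca1 and presence of CD34 and integrin alpha 7. Growth for at least 3 days followed, on type I collagen (0.5 mg/ml) in a proliferation medium, until the cells expressed MyoD, and both groups were handled alike. Whether each library came from its own animal was not given in the labels.

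Expression was given as 1 FPKM value (sequenced fragments scaled by transcript length and by library depth) for each gene and group, in which the 2 libraries are combined. No value per library was at hand, so the difference between the groups has no replicate check, and neither a standard deviation nor a p-value is given. The values of lowly expressed genes fell on steps that let 1 fragment be priced at 0.0179 FPKM times kilobases in Tet2 KO and 0.0176 in WT. At that price the combined values rest on about 55900000 fragments in Tet2 KO and 56800000 in WT. The fragments behind each gene were estimated from these prices, and the 95% intervals of folds below (exact binomial, Clopper-Pearson) cover counting error only. They say nothing of the spread between libraries or animals. A gene was counted as differing when the groups were at least 2-fold apart on the FPKM + 1 scale and the mean of both groups was at least 1 FPKM, a fixed size rule and not a test. Among the 11692 genes that reached this mean, 2.08% were at least 2-fold higher in Tet2 KO and 1.21% at least 2-fold lower.

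The targeted gene had 5.79 FPKM in Tet2 KO against 6.64 in WT. This value covers all exons and does not isolate the deleted one, so it is no check of the labels. The identity of the culture was checked by markers. The 7 myoblast markers were all above 1 FPKM, Myod1 with 313 FPKM in Tet2 KO against 336 in WT. Transcripts of the markers used to gate cells out were nevertheless present. Ptprc (CD45) had 5.67 FPKM in Tet2 KO against 1.36 in WT, Itgam (CD11b) had 10.1 and 2.09 FPKM, Pecam1 (CD31) had 1.48 and 1.63 FPKM, and Ly6a (Sca1) had 288 and 278 FPKM. Of the markers gated for, Cd34 had 6.74 FPKM in Tet2 KO against 3.03 in WT and Itga7 had 190 and 199 FPKM.

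Of the 9 complement genes, 6 were at least 2-fold higher in Tet2 KO and 0 were at least 2-fold lower, against the 2.08% and 1.21% of genes that reached the mean and 1.02% and 0.585% of all 24445 genes. The 6 were the 3 C1q chains, Cfp, C3ar1 and C3. C1ra and Cfb stayed within 2-fold, as did C4b, whose mean FPKM of 0.666 was alone among the 9 in being under 1. Over all 9 genes the median log2 ratio of Tet2 KO over WT on the FPKM + 1 scale was 1.30, against 0 over all 24445 genes. Among genes that reached the mean, it was 1.36 for the 8 complement genes and -0.0044 for the 11692 genes. Summed over the 9 genes, the level was 70.7 FPKM in Tet2 KO against 24.4 in WT.

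**Figure D1:**
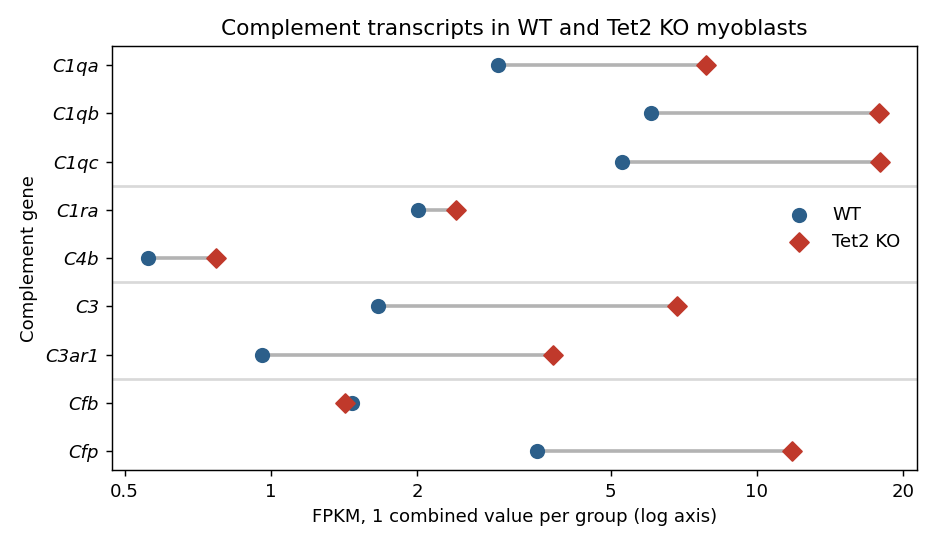
Level of each of the 9 complement genes in FPKM (horizontal log axis) in WT (circles) and Tet2 KO (diamonds), with 1 combined value per group and no error; grey lines join the groups of a gene. The C1q chains, C3, C3ar1 and Cfp lie at least 2.67-fold apart, and Cfb has nearly the same level in both groups.

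The regions before the start sites of 4 of these genes are shown. C1qb, C1qc and C3 were at least 2-fold higher in Tet2 KO, and C1ra was within 2-fold. Sequences were those of RefSeq on GRCm38.p6, which had entries for 6 of the 9 genes and none for C1qa, C4b and Cfb. Each run holds the 250 bases before the annotated start, 5′ to 3′ on the strand of the gene, from chr4:136886201-136886450 (minus strand) for C1qb, chr4:136892915-136893164 (minus strand) for C1qc, chr17:57228137-57228386 (minus strand) for C3 and chr6:124512371-124512620 (plus strand) for C1ra. Capitals mark a PU box (GAGGAA, bound by the myeloid factor PU.1) or a C/EBP core (TTGCNNAA), on either strand.
C1qb: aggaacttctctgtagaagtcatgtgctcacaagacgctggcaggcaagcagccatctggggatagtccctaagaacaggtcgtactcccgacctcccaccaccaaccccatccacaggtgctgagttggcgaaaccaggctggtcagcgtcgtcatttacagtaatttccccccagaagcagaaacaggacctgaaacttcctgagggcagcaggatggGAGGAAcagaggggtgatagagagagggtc
C1qc: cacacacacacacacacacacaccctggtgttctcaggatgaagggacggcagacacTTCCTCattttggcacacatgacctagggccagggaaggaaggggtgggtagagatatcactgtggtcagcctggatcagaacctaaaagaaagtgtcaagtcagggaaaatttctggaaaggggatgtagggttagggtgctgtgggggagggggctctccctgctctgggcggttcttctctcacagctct
C3: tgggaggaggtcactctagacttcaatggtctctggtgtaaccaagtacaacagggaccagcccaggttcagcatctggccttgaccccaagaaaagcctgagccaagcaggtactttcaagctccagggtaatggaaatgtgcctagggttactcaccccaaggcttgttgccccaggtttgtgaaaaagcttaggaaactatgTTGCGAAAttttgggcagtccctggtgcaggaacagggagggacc
C1ra: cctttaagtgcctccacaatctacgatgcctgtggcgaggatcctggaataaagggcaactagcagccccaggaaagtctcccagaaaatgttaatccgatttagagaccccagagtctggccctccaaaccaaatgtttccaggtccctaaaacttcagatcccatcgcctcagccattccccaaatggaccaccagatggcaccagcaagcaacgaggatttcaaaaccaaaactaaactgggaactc

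The C1qb run held a PU box 30 bases before the start, and the C1qc run held one on the other strand 193 bases before it. In C3 a C/EBP core lay 45 bases before the start. The printed C1ra run had no match. Cfp and C3ar1, also higher in Tet2 KO, are not printed. Neither held a PU box or a C/EBP core in the 250 bases before the start. When the 50 bases after the start were included, 4 of the 6 genes had a PU box (C1qb, C1qc, C1ra and Cfp), against 28.3% of 32851 promoters of the same 300 bases. C3 and C1ra had a C/EBP core, found in 10.8% of those promoters, and C3 and C3ar1 had a TATAAA, found in 13.6%. The TATAAA lay 15 bases after the start in C3 and 235 bases before it in C3ar1. No match overlapped another in these 6 genes. The motifs were chosen with these sequences in view, and a match is a description of letters and not of binding.

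The C1q chains were examined first. Their genes lie side by side within 18.7 kb of chromosome 4 (mm9, as are the coordinates from here on), all on the minus strand. C1qb runs from 136436061 to 136442092, C1qc from 136445717 to 136448829 and C1qa from 136451831 to 136454759, and the annotated transcript of each has 3 exons. C1qa, which encodes the A chain, had 7.85 FPKM in Tet2 KO against 2.94 in WT. Its fold of Tet2 KO over WT was 2.67 (counting interval 2.19 to 3.27, on an estimated 368 and 139 fragments). C1qb, which encodes the B chain, had 17.8 FPKM in Tet2 KO against 6.05 in WT. Its fold was 2.94 (2.58 to 3.36). The C chain gene, C1qc, had 17.9 FPKM in Tet2 KO against 5.28 in WT. Its fold was 3.40 (2.98 to 3.88), the largest of the 3 chains. The chains were thus higher in Tet2 KO by 2.67 to 3.40-fold, and their summed level was 43.6 FPKM against 14.3 FPKM.

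The protein holds its chains in equal number, but the transcripts were not equal. In both groups C1qa was the lowest chain, with a level 0.441 times that of C1qb in Tet2 KO and 0.486 times in WT. C1qc and C1qb were close, at a ratio of C1qc over C1qb of 1.01 in Tet2 KO and 0.872 in WT. No stretch of these 3 transcripts had a copy of at least 95% identity elsewhere in the mm9 genome.

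C1ra, the gene of the C1r protease that C1q carries, lies on chromosome 6 from 124462639 to 124473458. It had 2.41 FPKM in Tet2 KO against 2.01 in WT. The fold was 1.20 (1.02 to 1.41), below that of each C1q chain. At C1rb, a copy of the gene, 99.9% of the C1ra transcript was matched by stretches of at least 95% identity. C1rb was listed at 0.0363 FPKM in Tet2 KO against 0.0635 in WT, and how reads were divided between the copies is uncertain. C1s1, which encodes the partner protease C1s, had 2.44 and 1.56 FPKM, a log2 ratio of 0.42 on the FPKM + 1 scale that was within 2-fold. A copy of C1s1, C1s2, was listed at 0.0867 FPKM in Tet2 KO against 0.0503 in WT. The C1s1 transcript was not searched for near-identical stretches, so the division of reads between these 2 genes was not checked. The summed level of the C1q chains was 9.0 times that of C1ra and C1s1 in Tet2 KO and 4.0 times in WT.

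The inhibitor of the same proteases went the other way. Serping1, which encodes C1 inhibitor and was the most abundant soluble regulator measured, had 28.2 FPKM in Tet2 KO against 45.3 in WT. Its level was 1.60-fold higher in WT, within the 2-fold limit. Relative to C1ra and C1s1 together it stood at 5.83 in Tet2 KO and 12.7 in WT.

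C4b and Cfb, which act after C1 and in the alternative pathway, lie in the MHC region of chromosome 17, C4b from 34865326 to 34880842 and Cfb from 34993319 to 34999459. C4b had 0.772 FPKM in Tet2 KO against 0.560 in WT. The fold was 1.38 (1.12 to 1.70) on an estimated 223 and 164 fragments. Its near copy C4a, 65.2 kb away, covered 77.7% of the C4b transcript at 95% identity or more and had 0.162 and 0.186 FPKM, so the C4b value is uncertain too. Cfb, the gene of the factor B protease, had 1.42 FPKM in Tet2 KO against 1.47 in WT, a fold of 0.966 (0.793 to 1.18). C2, the classical counterpart of Cfb and its neighbour, had 1.23 and 1.42 FPKM. None of these 4 genes was past 2-fold in either direction.

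C3, the component on which all pathways converge, did not follow them. The gene lies on chromosome 17 from 57343390 to 57367559 and its longest annotated transcript has 41 exons. C3 had 6.85 FPKM in Tet2 KO against 1.66 in WT. The fold was 4.13 (3.73 to 4.58), on an estimated 1887 and 464 fragments, and was the largest of the 9 genes on the FPKM scale. In WT the level of C3 was 1.13 times that of Cfb, and in Tet2 KO it was 4.82 times.

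C3ar1, which encodes the receptor of the C3a fragment, lies on chromosome 6 from 122797158 to 122806175. It had 3.81 FPKM in Tet2 KO against 0.958 in WT, a fold of 3.98 (3.43 to 4.63). The WT value was under 1 FPKM, so the gene met the mean of 1 through its Tet2 KO value. The level of the receptor relative to C3 was alike in both groups, 0.557 in Tet2 KO and 0.577 in WT. Cfp, the gene of properdin, lies on the X chromosome from 20502580 to 20508681. It had 11.8 FPKM in Tet2 KO against 3.52 in WT, a fold of 3.36 (2.94 to 3.85).

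Ordered by level in FPKM, which is scaled by transcript length, Tet2 KO ran C1qc, C1qb, Cfp, C1qa, C3, C3ar1, C1ra, Cfb and C4b. WT ran C1qb, C1qc, Cfp, C1qa, C1ra, C3, Cfb, C3ar1 and C4b. The top 4 places were held by the C1q chains and Cfp in both groups, while C3 and C3ar1 stood above C1ra in Tet2 KO and below it in WT. With no spread over libraries, neighbours in either order cannot be separated.

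The contrast of usual cell sources was then drawn. All 5 genes of usual myeloid origin (the C1q chains, C3ar1 and Cfp) were at least 2-fold higher in Tet2 KO. Their median log2 ratio on the FPKM + 1 scale was 1.42. Of the 4 genes of usual mesenchymal origin (C1ra, C3, C4b and Cfb) 1 was, namely C3, and their median over all 4 was 0.18. Beside these counts, 2.08% of the 11692 genes that reached a mean of 1 FPKM were at least 2-fold higher, and 1.02% of all 24445 genes. C3 apart, the mesenchymal genes ranged from -0.03 for Cfb to 0.18 for C1ra and C4b. The difference between the sets was not tested, since 1 value per group leaves no error to set it against.

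**Figure D2:**
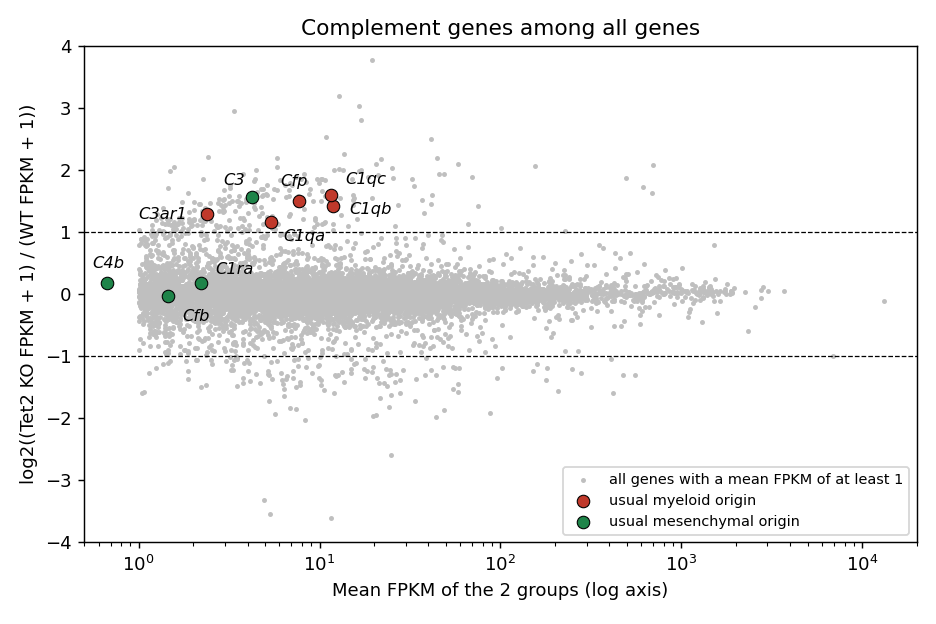
Log2 ratio of Tet2 KO over WT on the FPKM + 1 scale (vertical axis) against the mean FPKM of both groups (horizontal log axis), with 1 grey point per gene of the 11692 and the 9 complement genes in colour by usual origin; dashed lines mark 2-fold, and 5 genes lie beyond the axis limit of 4. The 5 genes of myeloid origin and C3 lie above the upper line, whereas C1ra, C4b and Cfb lie in the bulk of genes.

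Cell type markers were read beside this contrast. Of 16 macrophage markers 14 reached a mean of 1 FPKM, all 14 were higher in Tet2 KO and 11 of them by at least 2-fold. Their median log2 ratio on the FPKM + 1 scale was 1.53, and the summed level of the list was 471 FPKM in Tet2 KO against 122 in WT. Csf1r, the receptor that macrophages need for growth, had 8.25 and 2.06 FPKM. Cx3cr1 and Cd163, markers of some resident macrophages, were under 0.1 FPKM in both groups. All 8 neutrophil markers were at least 2-fold higher, with a median of 1.79 and a summed level of 1989 FPKM against 561 FPKM. S100a8 alone had 941 FPKM in Tet2 KO against 285 in WT. Of 11 mesenchymal markers 8 reached that mean, with a median of 0.41, and all 8 were higher in Tet2 KO, 1 of them (Mfap5, at 1.00) by 2-fold. The summed level of that list was 493 FPKM against 448 FPKM, most of it from Ly6a and from Col3a1 (171 and 152 FPKM). Other members differed more, Dcn with 7.04 FPKM in Tet2 KO against 3.15 in WT, Col1a2 with 15.8 and 8.71 FPKM and Pdgfra with 1.91 and 1.06 FPKM. Lymphocyte and hepatocyte markers had 0 of 7 and 0 of 5 genes at a mean of 1 FPKM. The 7 myoblast markers had a median of -0.10, with Myog alone past 2-fold, lower in Tet2 KO.

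The log2 ratios of the C1q chains, C3ar1, Cfp and C3 on the FPKM + 1 scale, from 1.17 to 1.59, lay in the range of the 14 macrophage markers that reached a mean of 1 FPKM, from 0.88 to 2.07. Those of C1ra and Cfb, which reached that mean as well, were below this range. The 8 neutrophil markers ranged from 1.57 to 2.50 on that scale, which held C1qc at 1.59 and none of the other complement genes named here. That separation depended on the added 1 FPKM, which understates the change of low genes. By plain FPKM folds the neutrophil markers ran from 3.14 (Camp) to 6.07 (Ltf). Cfp at 3.36, C1qc at 3.40, C3ar1 at 3.98 and C3 at 4.13 lay in that range, and C1qa at 2.67 and C1qb at 2.94 lay below it. On the FPKM + 1 scale the 8 mesenchymal markers that reached a mean of 1 FPKM ranged from 0.05 to 1.00, which held C1ra at 0.18 and not Cfb at -0.03. Both macrophage markers under that mean had ratios near 0, Cx3cr1 at -0.05 and Cd163 at -0.0053, and C4b, also under it, was at 0.18. The part of any cell type in these values was not tested, and in bulk RNA a different number of cells of a type and a different amount of RNA per cell cannot be told apart.

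**Figure D3:**
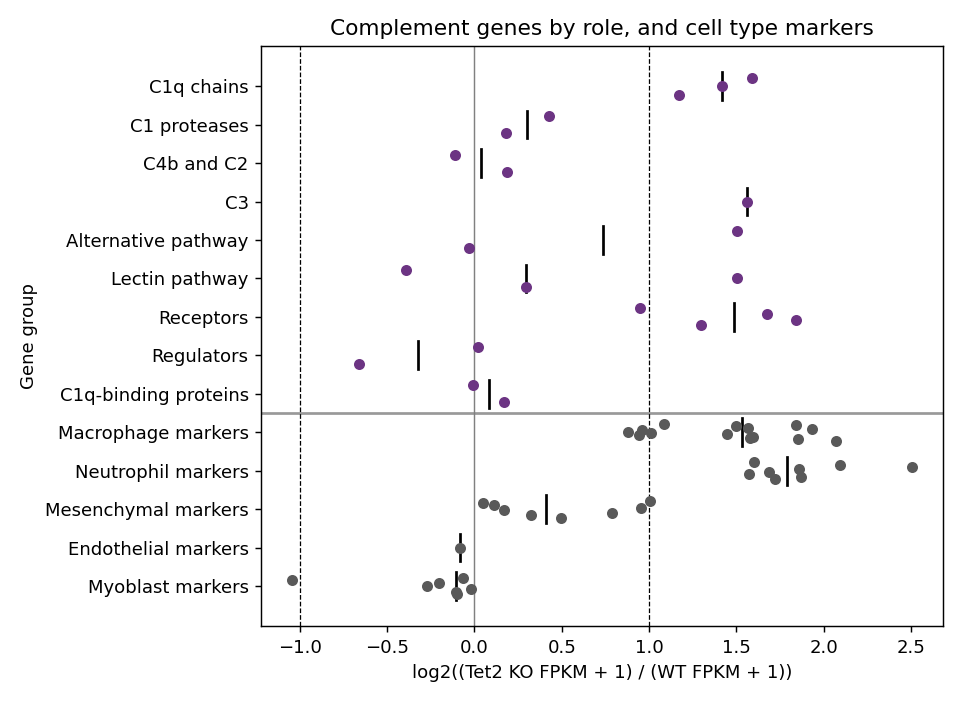
Log2 ratio of Tet2 KO over WT on the FPKM + 1 scale (horizontal axis) for complement genes grouped by role (upper block) and for cell type markers (lower block); each point is 1 gene whose mean FPKM reached 1 (C4b, at 0.666, is shown as well), black bars are medians and dashed lines mark 2-fold. Itgam is drawn both as a receptor and as a macrophage marker. The C1q chains and C3 lie above the 2-fold line, C1qa and C1qb lie below all 8 neutrophil markers, and the proteases C1ra and C1s1 lie within 2-fold.

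The rest of the pathway was examined through 51 other complement genes. Of these 12 reached a mean of 1 FPKM, with 3 at least 2-fold higher in Tet2 KO, 0 lower and 9 within 2-fold. Among all 11692 genes that reached it, 2.08% were at least 2-fold higher and 1.21% lower. The other 39 were under that mean, as were 12753 of all 24445 genes. The median log2 ratio on the FPKM + 1 scale was 0.23 for the 12 and 0.0019 for all 51. The 3 were Itgam and Itgb2, which form the complement receptor CR3 and are also leukocyte markers, and Fcnb. Itgam had a log2 ratio of 1.84 and Itgb2 one of 1.67. Fcnb, a ficolin of the lectin pathway made by myeloid cells, had 5.35 FPKM in Tet2 KO against 1.24 in WT. The other lectin pathway genes with a mean of at least 1 FPKM were Masp1, a protease, with 7.0 and 5.51 FPKM, and Colec12, a scavenger receptor, with 8.03 and 10.8 FPKM. Both were within 2-fold. The remaining 6 of the 9 lectin pathway genes were below, Mbl1 and Mbl2 being listed at 0 in both groups.

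Of the other receptors, Cd93 came close to the limit, with 4.61 FPKM in Tet2 KO, 1.91 FPKM in WT and a log2 ratio of 0.95. C5ar1, the receptor of the C5a fragment, had 1.45 and 0.547 FPKM, a mean just under 1. Among regulators on the cell surface, Cr1l, which encodes the rodent regulator Crry, had 24.6 FPKM in Tet2 KO against 24.2 in WT, and the other 7 membrane regulators had a mean below 1 FPKM. The C1q-binding proteins C1qbp and Calr, which serve other functions in every cell, had 86.4 and 403 FPKM in Tet2 KO, with log2 ratios of 0.17 and -0.0058. Terminal pathway genes, whose products form the membrane attack complex, had 0 of 7 at a mean of 1 FPKM, the highest value being 0.558 FPKM for C8g in WT. Cfd, which encodes the factor D protease that activates factor B, was listed at 0 in WT and had 0.132 FPKM in Tet2 KO.

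Genes around the complement loci were listed as well. With 2.08% of the 11692 genes higher and 1.21% lower by at least 2-fold, few or none would be past it in sets of this size, so counts of 0 below do not set these regions apart. Within 200 kb of the C1q cluster 2 other genes reached that mean, Ephb2 with a log2 ratio of -0.60 and Zbtb40 with -0.27, both lower in Tet2 KO while the 3 chains between them were higher. None of 3 neighbours of C3ar1 and none of 6 neighbours of Cfp was past 2-fold. Around Cfb and C4b, 0 of 24 neighbours were past it, with a median of 0.08. Near C3, 2 of 7 neighbours were at least 2-fold higher. These were Vav1 (3.64 and 0.833 FPKM), a signalling gene of blood cells, at a distance of 51.0 kb, and the macrophage marker Adgre1 (3.67 and 0.712 FPKM) at 131 kb. Both were under 1 FPKM in WT, so they met the mean of 1 through their Tet2 KO values. Gpr108 and Trip10, which lie between C3 and Vav1, had ratios of 0.0030 and -0.011. Of 6 neighbours of C1ra, the leukocyte phosphatase gene Ptpn6 was the 1 past 2-fold, at 1.08.

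**Figure D4:**
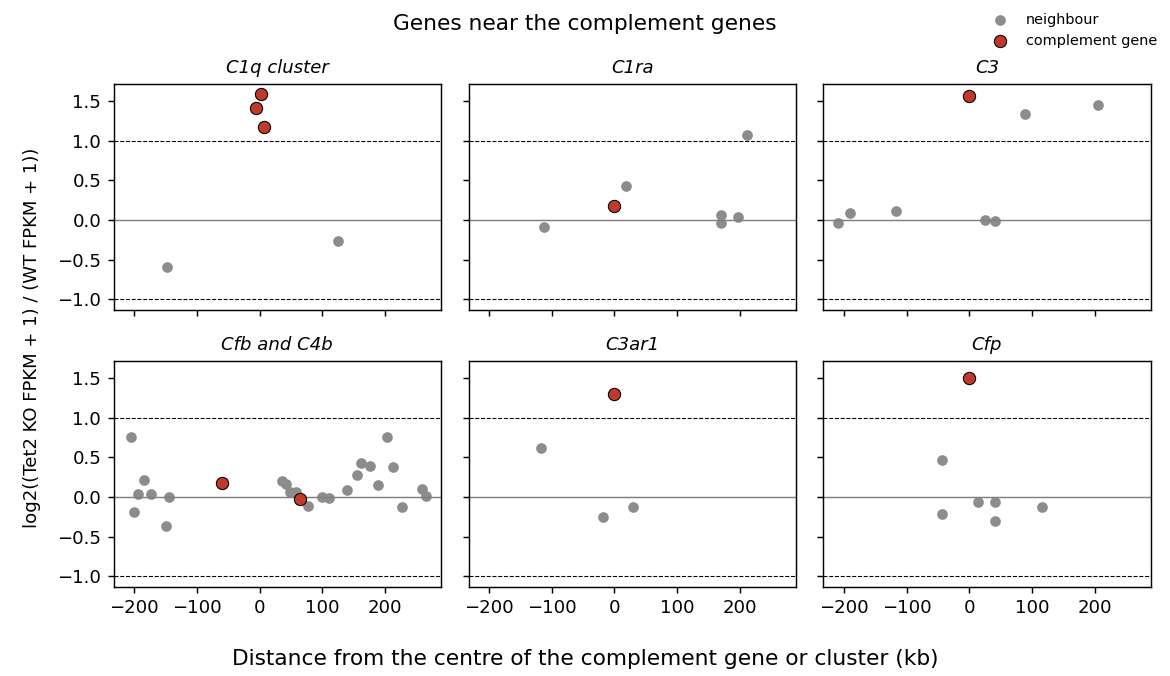
Log2 ratio of Tet2 KO over WT on the FPKM + 1 scale (vertical axis) against the distance of the centre of each gene from the centre of the complement gene or cluster in kb (horizontal axis), for genes whose nearer end lay within 200 kb and whose mean FPKM reached 1; the 9 complement genes are red, neighbours (C1s1 among them) grey, and dashed lines mark 2-fold. The red points of the C1q cluster, C3ar1 and Cfp stand alone above the upper line, and C3 shares that height with Vav1 and Adgre1.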

How the data were processed

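RNA was measured in 4 libraries, 2 WT and 2 Tet2 KO. Per the study's methods and the submitters' processing notes, reads were trimmed and then placed by the authors on mm9 with TopHat2 2.0.13 and the deposited FPKM values came from Cuffdiff 2.2.1. The gene annotation and the way libraries were combined were not given in the sources used here. TruSeq v2 libraries do not mark strand, and Cfb and C3 each overlapped a microRNA entry. The table also holds the authors' own comparison (log2 ratio, statistic, p and q), which was not used.

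Log2 ratios were computed here as log2((Tet2 KO FPKM + 1) / (WT FPKM + 1)). The pseudocount understates the change of low genes. With 1 value per group no test could be run. Fragments were estimated from the longest GENCODE vM1 transcript, less 200 bases (Tet2 KO) or 210 bases (WT). Of 1273 and 1589 low values of genes with 1 transcript, 89.6% and 89.4% lay within 0.2 of a whole number of fragments, where 40% would if values had no steps. The estimate assumes that the authors' transcript models are like these. Copies were searched in mm9 with BLAST 2.17.0. Scripts used Python 3.11.15, numpy 2.4.6, pandas 2.3.3 and scipy 1.17.1 and were tested on simulated data.

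The genes, lists and alternatives were chosen with earlier results of these data known. Named genes were the 9 members, other complement genes past 2-fold or with a mean FPKM of at least 10, near copies and leading markers, and genes of small counts were named after their values were seen. Assignment to a usual origin is textbook background.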

Additional observations from a re-analysis of the deposited data

How the results depend on the processing

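No paired analysis was possible because the table holds 1 combined value per group; leaving out each library was not possible for the same reason. The ratios of the 9 complement genes kept their direction and their side of 2-fold under a pseudocount of 0.1, no pseudocount, no filter, TPM and median centring, C3ar1 ranging most, from 1.30 to 1.99. At a mean FPKM of at least 5 only the C1q chains and Cfp remained, all 4 past 2-fold. A limit of 3-fold on the FPKM + 1 scale left 1 of the 6 (C1qc), and a limit of 1.5-fold added Serping1 as the 1 other complement gene lower. The 3 other complement genes that were higher became 4 at 1.5-fold, with a pseudocount of 0.1, with none and with TPM. They became 2 at a mean of at least 5 and at 3-fold. Over all genes, the 243 higher became 109 at a mean of at least 5, 435 at 1.5-fold and 81 at 3-fold. The 142 lower became 215 with a pseudocount of 0.1, 224 with none, 338 at 1.5-fold and 25 at 3-fold. Depth is an estimate and leaves C4b with the fewest fragments after C1qa in WT. The spread between libraries is unknown.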

Other observations

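The C1q chains share their globular domain with proteins that are not part of complement, among them the C1q and TNF related family and adiponectin. A set of 14 such genes was looked at after the values above were known. Of these 4 reached a mean of 1 FPKM, and 0 were at least 2-fold higher in Tet2 KO, a count that says little beside the 2.08% of the 11692 genes that reached that mean. C1qtnf3, a secreted factor of cartilage and fat, was the most abundant, with 26.4 FPKM in Tet2 KO against 47.9 in WT, so its level was 1.81-fold higher in WT. C1qtnf12 had 7.90 and 8.54 FPKM, and C1qtnf1 and C1qtnf6 had log2 ratios on the FPKM + 1 scale of -0.02 and -0.12. The value of C1qtnf3 in each library is not known.

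Cfd lies 2.64 kb from Elane, the gene of neutrophil elastase, on chromosome 10. Elane had 16.6 FPKM in Tet2 KO against 3.84 in WT, whereas Cfd was listed at 0 in WT and had 0.132 FPKM in Tet2 KO. Relative to Elane, the level of Cfp was 0.714 in Tet2 KO and 0.918 in WT.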
